A study of Drosophila melanogaster with 4 samples.

Results

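The genes described here carry CR numbers, the FlyBase numbering given to Drosophila genes annotated without a protein product. They were chosen by name and by level: a CR number, and a count of 200 or more read pairs in each of the 4 libraries. A limited block of numbers, which belongs to heterochromatic ribosomal RNA-like units, was left out. The block starts at 40000 and ends below CR42491, so higher numbers were kept. This gave 42 members of the 2021 CR-numbered genes in a table of 16727 genes. Of the others, 54 had a number that was left out (5 of these reached 200 in each library), and 1925 lay below the count threshold, 720 of them with 0 pairs in every library.

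RNA was measured by RNA-seq in whole Drosophila melanogaster embryos of 16 to 18 h. All embryos were homozygous for a deletion of the histone gene complex (deltaHisC), were picked by GFP, and lived on a 12-copy histone transgene. In H3.2-WT (deltaHisC; 12xH3.2-WT) the transgenic histone H3.2 was wild type. In H3.2-K4R (deltaHisC; 12xH3.2-K4R) its lysine 4 was replaced by arginine. There were 2 libraries per group. The variant histone H3.3 has its own genes and was not part of the labelled genotype, so lysine 4 was not removed from all histone H3. Each library was made from about 0.25 µg of total RNA with a kit that depletes Drosophila ribosomal RNA. In whole embryos, fewer cells of a type and less RNA per cell cannot be told apart.

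Long noncoding RNAs are transcribed by RNA polymerase II and often spliced, but carry no long open reading frame. Some act as RNA, as do the roX RNAs of X-chromosome dosage compensation. Others are primary transcripts that are cut to release a microRNA (miRNA), lie antisense to another gene, or sit inside an intron. Methylation of histone H3 at lysine 4 marks the starts of active genes, noncoding ones included, and monomethylation of the same lysine marks enhancers, which can themselves be transcribed.

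The counted pairs per library ran from 33882742 (H3.2-WT replicate 1) to 45509930 (H3.2-WT replicate 2), with 42661669 and 37055590 for H3.2-K4R. The members held 0.450% and 0.477% of the counted pairs in H3.2-WT against 0.466% and 0.410% in H3.2-K4R. Muscle markers, 5 of 5 detected, summed to 20445 to 21807 CPM (counts scaled to library size) in H3.2-WT and 15473 to 17378 in H3.2-K4R. Neuron markers, 5 of 5 detected, summed to 2100 to 2187 CPM in H3.2-WT and 2474 to 2538 in H3.2-K4R. Ovary and eggshell markers summed to 0.862 to 10.3 CPM, with Cp36 at 0 in every library, and testis markers to 0 to 0.352 CPM, with dj at 0. Glia markers, 3 of 3 detected, summed to 209 and 265 CPM in H3.2-WT against 193 and 180 in H3.2-K4R. Epidermis and cuticle markers, 4 of 4 detected, summed to 449 and 515 against 556 and 554 CPM. The 2 gut and fat body markers summed to 97.8 and 79.4 against 188 and 112 CPM. Nearly all of that was Jon65Aiii, a gut protease gene, since the fat body marker Fbp1 had at most 0.304 CPM in any library. In the sums of the muscle, neuron, glia, epidermis and gut lists the groups did not overlap, beside 51.0% of all single tested genes. In the hemocyte list (269 to 314 CPM) they did. Within these 5 lists the single markers elav, brp, Gli, grh, kkv and Cpr49Ae overlapped between the groups, and the others did not. Cpr49Ae had 48.3 and 43.3 CPM in H3.2-WT against 43.9 and 36.9 in H3.2-K4R, unlike the sum of its list. The part of these differing marker levels in the results below was not tested.

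Not every member is still annotated as noncoding. In the current RefSeq gene table (assembly Release 6), 36 of the 42 are long noncoding RNA genes, 3 are antisense RNA genes and 3 are now protein-coding. The 3 protein-coding ones are CR43051 (CG43051), CR44404 (IBIN) and CR45207 (CG45207). CR44327 and CR45244 are now joined in 1 gene, lncRNA:CR46006, so the 42 rows stand for 41 current genes. The members had 228 to 15466 bases of exon, with a median of 1512, and 14 had a single exon. They lay on chromosome arms 2R (11 members), 3R (10), 3L (8), 2L (7) and X (5), and 1 on chromosome 4.

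Levels per length of exon spread over more than 3 orders of magnitude, from 1.03 to 3028 CPM per kilobase, with a median of 13.0. CR34335, a single exon of 249 bases on X, stood highest at 3028 CPM per kilobase. CR42862, a spliced RNA of 3L, followed at 296 and took 32.1% to 41.5% of all member pairs in each library. IBIN followed at 157, CR44138 at 112 and CR31451, now lncRNA:mimi, at 103 CPM per kilobase. CR44603 stood lowest at 1.03. Because a minimum level chose the members, these levels are a description.

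The comparison of H3.2-K4R with H3.2-WT asked how the members' RNA levels differed when lysine 4 of the transgenic histone could not be methylated. edgeR's test called CR44138 higher and no member lower. The fold changes of the 42 members had a median of 0.04 log2 units, against -0.02 over the 11562 genes tested, and 22 were positive and 20 negative. All 42 members passed the filter on low counts and were tested with edgeR's quasi-likelihood test. At a Benjamini-Hochberg adjusted p under 0.05, 1 member was higher and 0 were lower, where the same test called 68 (0.588%) of all tested genes, and 48 (0.415%) of them higher. Among tested genes outside the CR series with 200 or more pairs in each library it called 45 of 7091, or 0.635%. A count of 1 in 42 is too small to set apart from these shares.

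At an unadjusted p under 0.05, edgeR had 6 members higher and 3 lower, beside 7.68% and 9.2% of all tested genes. The groups did not overlap in 11 members that were higher and 11 that were lower, beside 23.6% and 27.5% of all tested genes. DESeq2 called 3 members higher (CR44138, CR43283 and CR45517) and 0 lower, where it called 5.58% of the genes to which it gave an adjusted p. Limma-voom called 2 higher (CR44138 and CR43283) and 0 lower, where it called 1.5% of the genes it tested. For 30 of the 42 members the 95% confidence interval lay within 1 log2 unit of 0 on both sides, so a 2-fold difference lay outside it. Standard errors (SE) ran from 0.14 to 0.65 log2 units.

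**Figure D1:**
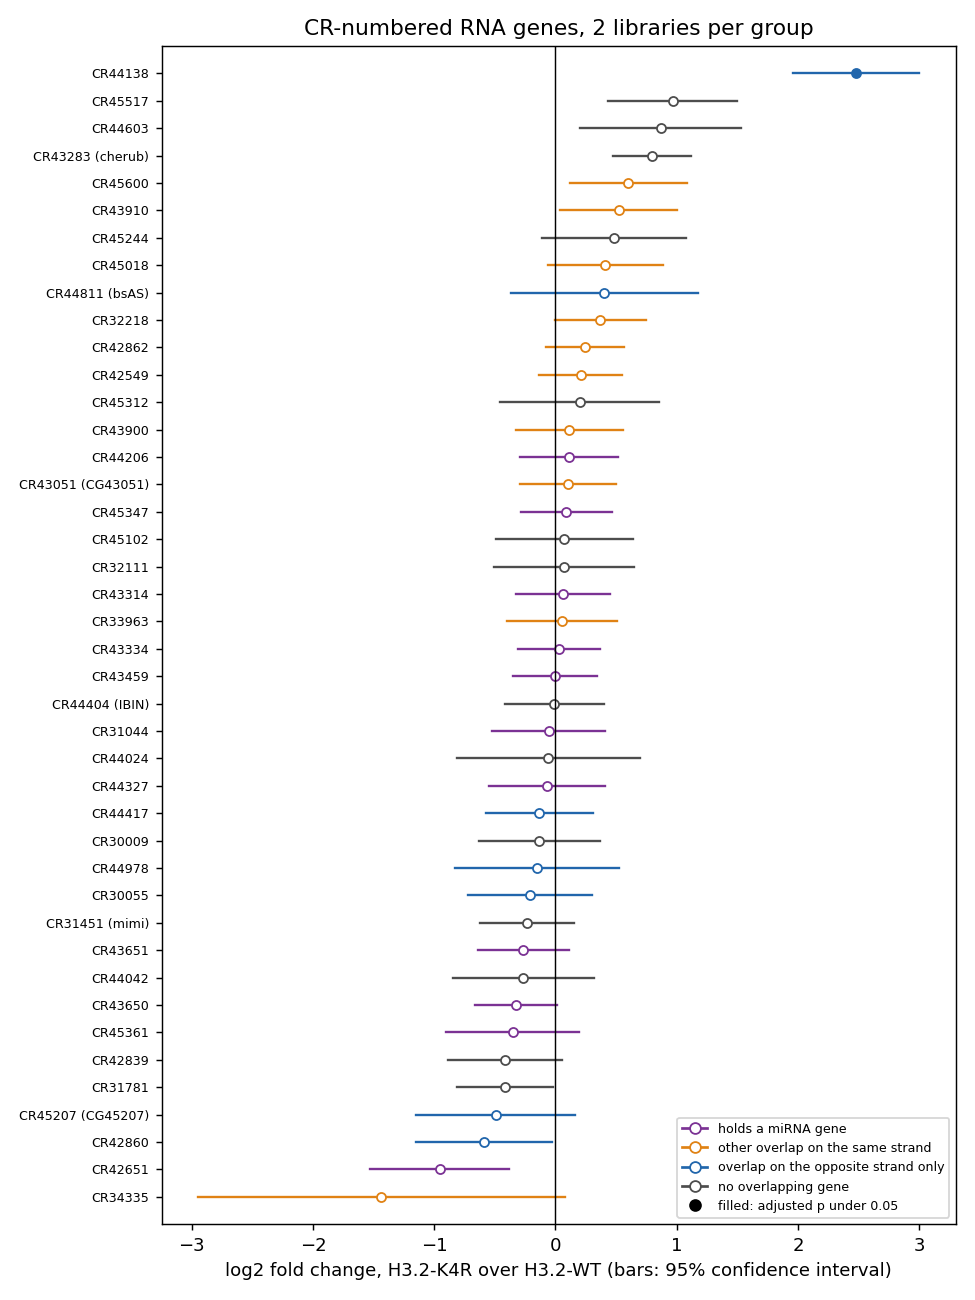
Fold change of each of the 42 members on the log2 scale (x axis, H3.2-K4R over H3.2-WT) and its 95% confidence interval. Intervals were derived from edgeR's test, and colours show how the gene lies relative to other genes. CR44138 at the top is the only filled point (adjusted p = 0.00947), and CR34335 at the bottom has the widest interval, from -2.95 to 0.08.

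CR44138 is a single exon of 493 bases on 3R (dm6, 13376903 to 13377395, plus strand). It lies inside the span of CG9813, on the opposite strand and in none of its exons. CR44138 had 631 and 695 pairs in H3.2-WT against 3275 and 3973 in H3.2-K4R, or 18.5 and 15.0 against 76.8 and 110 CPM. Both H3.2-K4R libraries stood above both H3.2-WT libraries, and the gap between the groups was wider than that within either. The difference was 2.48 ± 0.23 log2 units (SE, n = 2 per group), a 5.58-fold rise with a 95% confidence interval of 3.88 to 8.02 (edgeR adjusted p = 0.00947). Over 11 alternative settings the difference ran from 2.20 to 2.83, with an adjusted p from 9.48e-46 to 0.137. The call was lost in 1 of them, without H3.2-WT replicate 2, where the difference was 2.33 (adjusted p = 0.137).

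CG9813, the gene around it, had 755 and 1099 pairs in H3.2-WT against 1288 and 1320 in H3.2-K4R. Its difference was 0.54 ± 0.18 log2 units and did not pass the test (edgeR adjusted p = 0.208). Counting used strand, so the pairs of CR44138 and CG9813 were counted apart.

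CR43283 is now named lncRNA:cherub (dm6, 3R, 11247631 to 11256123, minus strand), with 8398 bases of exon and no overlapping gene. In the larval brain of Drosophila, cherub is known to be passed unequally to the daughters of dividing neural stem cells and to sustain the growth of brain tumours. Cherub had 10340 and 12586 pairs in H3.2-WT against 20701 and 18556 in H3.2-K4R, or 303 and 271 against 486 and 513 CPM. Both H3.2-K4R libraries were well above both H3.2-WT libraries. The difference of 0.80 ± 0.14 log2 units, or 1.74-fold (95% confidence interval 1.39 to 2.17), missed the threshold (edgeR adjusted p = 0.0622). DESeq2 (adjusted p = 7.27e-06) and limma-voom (adjusted p = 0.0240) called it. With a correction for exon length the difference was 0.61 (edgeR adjusted p = 0.118), and over the 11 alternatives the adjusted p ran from 2.44e-06 to 0.499.

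Genes of neural stem cells, picked after values had been seen, were set beside cherub. For H3.2-K4R against H3.2-WT, wor had 1.44 ± 0.36 log2 units, ase 1.08 ± 0.31, nerfin-1 1.05 ± 0.21, dpn 0.67 ± 0.32 and mira 0.37 ± 0.18. None of these 5 passed the test (edgeR adjusted p from 0.0931 to 0.339). Their part in the level of cherub was not tested.

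CR45517 is a single exon of 774 bases on X (dm6, 5428483 to 5429256, plus strand). It had 426 and 421 pairs in H3.2-WT against 824 and 823 in H3.2-K4R, or 12.5 and 9.07 against 19.3 and 22.8 CPM. The groups did not overlap, and the difference was 0.97 ± 0.23 log2 units (edgeR adjusted p = 0.132, and 0.0242 with DESeq2). The genes on either side went different ways. CG16756, which ends 266 bases away on the same strand, had -0.65 ± 0.37 log2 units, and CG15784, on the other side, had 1.59 ± 0.46 (edgeR adjusted p = 0.429 and 0.175).

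CR44603, on 2L (dm6, 1618637 to 1626021, minus strand), was counted thinly, with 209 and 210 pairs in H3.2-WT against 409 and 355 in H3.2-K4R. Its groups did not overlap, and its difference was 0.87 ± 0.29 log2 units (edgeR adjusted p = 0.209). RFeSP, its nearest neighbour at 4477 bases, had -0.69 ± 0.20.

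CR34335 was the member with the largest negative fold change, and that value rested on 1 library. It had 36021 and 53130 pairs in H3.2-WT against 29904 and 4068 in H3.2-K4R, or 1057 and 1145 against 701 and 113 CPM. H3.2-K4R replicate 1 stood 6.23-fold above H3.2-K4R replicate 2, and no other member differed more than 2-fold within a group. The difference was -1.44 ± 0.65 log2 units (edgeR adjusted p = 0.318). It was -3.29 without H3.2-K4R replicate 1 (adjusted p = 0.000265) and -0.65 without H3.2-K4R replicate 2 (adjusted p = 0.154). Among 32 other genes with at most 300 bases of exon and 200 or more pairs in each library, a set chosen after values had been seen, the ratio of H3.2-K4R replicate 1 to replicate 2 had a median of 1.59 and reached 3.57. It was above 1 in 28 of the 32. The part of transcript size in the value of CR34335 was not tested. The gene lies on X (dm6, 3545862 to 3546110, minus strand) in an intron of DIP-alpha (CG32791 in the table), a cell-surface protein gene on the same strand. DIP-alpha had only 479 to 667 pairs per library and 0.05 ± 0.20 log2 units.

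CR42862 (dm6, 3L, 224106 to 230964, plus strand) took the most pairs of any member. It had 1477 and 1502 CPM in H3.2-WT against 1779 and 1742 in H3.2-K4R. The groups did not overlap and the libraries of a group lay close together, yet the difference was small, at 0.24 ± 0.14 log2 units (edgeR adjusted p = 0.432). A share of 4.48% of its exon bases is also exon of CG33229 on the same strand, and pairs over both genes were not counted.

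**Figure D2:**
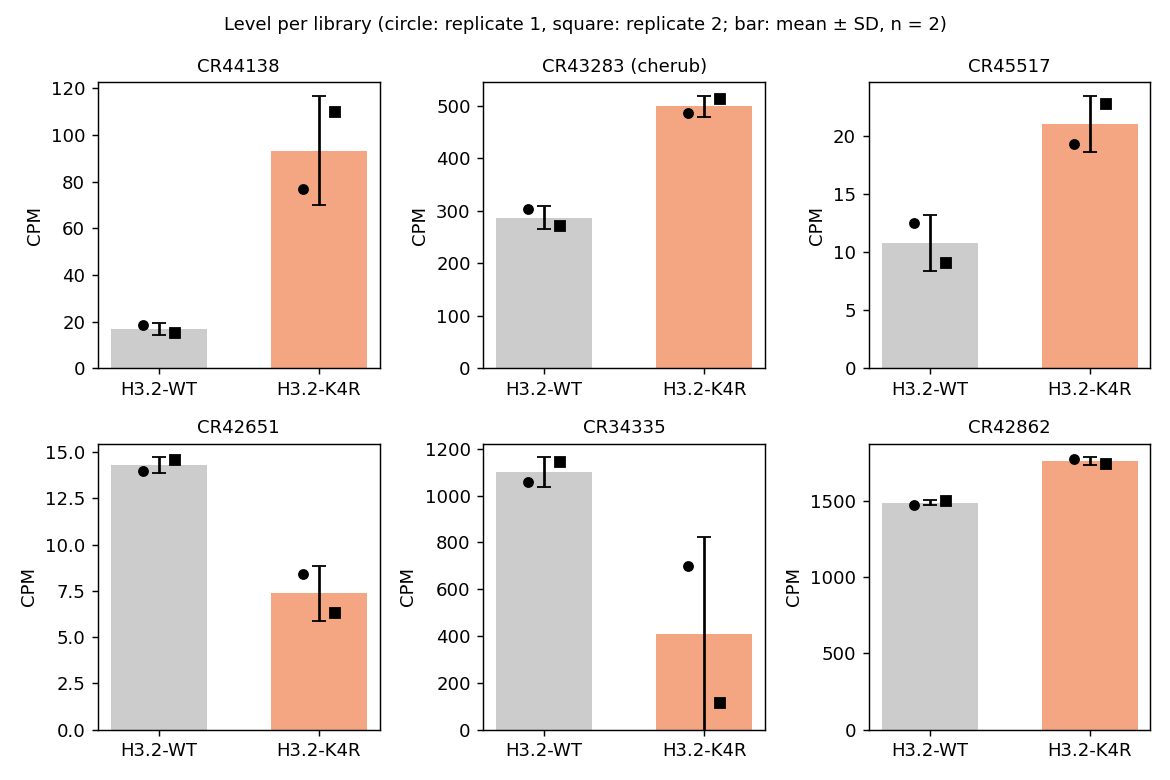
Level of 6 members in CPM (y axis, linear from 0) in the H3.2-WT and H3.2-K4R libraries, with circles for replicate 1, squares for replicate 2 and bars for the mean ± SD of 2 libraries. CR44138 goes from 18.5 and 15.0 to 76.8 and 110 CPM, and CR34335 has a wide H3.2-K4R bar because its 2 libraries had 701 and 113 CPM.

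By annotation, 11 members hold 12 miRNA genes inside their span on the same strand, and a primary transcript of this kind is cut to release the miRNA. This grouping was made after values had been seen. The 12 miRNA genes themselves had a count of 0 in every library. Pairs over both a miRNA gene and an exon of its host were not counted, so that 0 tells nothing about the miRNAs. The values below are those of the long host transcripts, and mature miRNA levels were not tested. edgeR called 0 of the 11 hosts, where it called 0.588% of all tested genes. At an unadjusted p under 0.05, 1 was lower and 0 higher, beside 9.2% and 7.68% of all tested genes. DESeq2 and limma-voom also called 0, beside 5.58% and 1.5% of the genes to which they gave an adjusted p. A count of 0 in 11 is too small to set apart from these shares. Their fold changes ran from -0.96 to 0.11 log2 units with a median of -0.06, and 4 were positive and 7 negative.

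CR42651 holds mir-10 and is the only member in a Hox gene cluster, lying between Dfd and Scr in the Antennapedia complex (dm6, 3R, 6808796 to 6816328, minus strand). The Hox genes set segment identity along the body and are classic targets of Polycomb and Trithorax group proteins. CR42651 had 477 and 677 pairs in H3.2-WT against 359 and 228 in H3.2-K4R, or 14.0 and 14.6 against 8.42 and 6.31 CPM. Both H3.2-K4R libraries were below both H3.2-WT libraries. The difference of -0.96 ± 0.25 log2 units, with a 95% confidence interval of -1.53 to -0.38, did not pass the test (edgeR adjusted p = 0.150). Over the 11 alternatives it ran from -1.18 to -0.76, with an adjusted p from 0.00537 to 0.566. Its flanking Hox genes lay nearer to 0, with -0.03 ± 0.24 log2 units for Dfd and -0.21 ± 0.18 for Scr. These differences between neighbours were not tested.

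The Antennapedia complex, from lab to Antp, holds 9 CR-numbered genes in the table, of which 6 were tested and 1 is a member. The bithorax complex, from Ubx to Abd-B, holds 4, of which 1 was tested and none is a member. The other tested ones had at most 210 pairs in any library, and their intervals spanned 0. In the Antennapedia complex, CR42721 had 0.13 log2 units, with a 95% confidence interval of -0.82 to 1.07, and CR43252 had 0.32. CR45593, CR45559 and CR44932, in the same complex, had -0.61, -2.11 and -0.62. CR45559 had at most 46 pairs in any library. CR44945, in the bithorax complex, had 0.52, with an interval of -1.30 to 2.35.

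CR43334 is the host of mir-ban, the bantam miRNA, which promotes tissue growth and blocks cell death. It had the highest CPM of the hosts, not divided by length, with 347 and 412 CPM in H3.2-WT against 375 and 399 in H3.2-K4R. The groups overlapped, and the difference was 0.03 ± 0.15 log2 units, with a 95% confidence interval of -0.31 to 0.37. CR43650 holds mir-8, which tunes growth and neuromuscular development. It had 161 and 176 CPM in H3.2-WT against 125 and 144 in H3.2-K4R, and its difference was -0.33 ± 0.15 (edgeR adjusted p = 0.309). The groups did not overlap in CR43650.

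CR45361 holds mir-1, the muscle miRNA, and had 13.5 and 12.4 CPM in H3.2-WT against 8.87 and 11.4 in H3.2-K4R. Its groups did not overlap, and its difference was -0.35 ± 0.24 log2 units (edgeR adjusted p = 0.501). The summed muscle markers were also lower in H3.2-K4R, as given above. Their part in the level of CR45361 was not tested. CR43651, the host of mir-14, had -0.26 ± 0.16 log2 units. The other 7 hosts, those of mir-bft, mir-4973, mir-184, mir-276a, mir-277 and of the pair mir-279 and mir-996 together with the bantam host, lay between -0.07 and 0.11 log2 units.

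**Figure D3:**
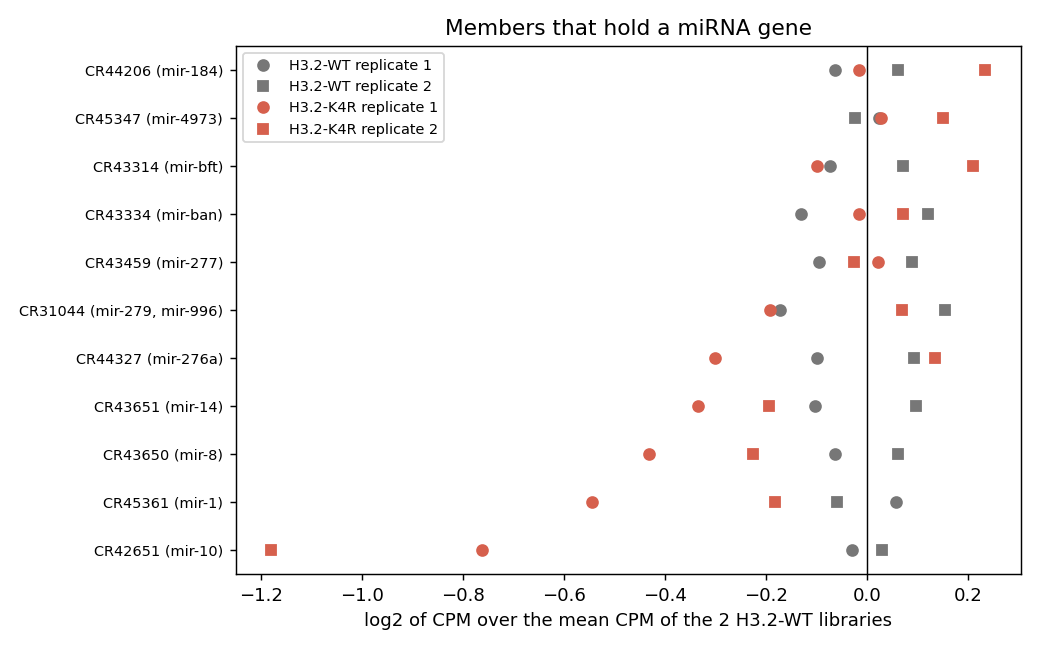
Level of the 11 members that hold a miRNA gene in each library, as the log2 of CPM over the mean CPM of the 2 H3.2-WT libraries (x axis; grey H3.2-WT, red H3.2-K4R, circle replicate 1, square replicate 2). CR42651, the host of mir-10, had both H3.2-K4R libraries farthest to the left, and the 7 hosts above CR43651 had fold changes between -0.07 and 0.11 log2 units.

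Of the 42 members, 21 overlap another gene on the same strand, 7 overlap one on the opposite strand only, and 14 overlap none. Their median fold changes were 0.06, -0.15 and 0.03 log2 units. Among the 21, 7 lie wholly inside the span of a protein-coding gene on the same strand, and 6 of these 7 were positive, with a median of 0.21. Unspliced RNA of the surrounding gene is counted to such members where their exons fall in its introns, and its part in their values was not tested.

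CR43910 lies inside rhea, which encodes the integrin-binding protein talin. It had 25.8 and 30.5 CPM in H3.2-WT against 33.8 and 47.1 in H3.2-K4R, a difference of 0.52 ± 0.21 log2 units (edgeR adjusted p = 0.266). rhea had 0.16 ± 0.16. CR32218 lies inside Su(Tpl), which encodes a factor of transcription elongation, and inside Mi-2, a chromatin remodeller gene. It had 47.5 and 44.8 CPM in H3.2-WT against 55.2 and 64.2 in H3.2-K4R, and its difference of 0.37 ± 0.16 lay near that of Su(Tpl), at 0.34 ± 0.14. CR42549, inside mura, had 0.21 ± 0.15 beside 0.36 ± 0.14 for mura. In CR43910, CR32218 and CR42549 the groups did not overlap, and none passed the test.

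Among antisense members, CR42860 lies opposite sls, which encodes the giant titin-like protein of muscle sarcomeres, and 74.5% of its exon bases are also exon of sls. CR42860 had 14.6 and 11.9 CPM in H3.2-WT against 8.12 and 9.49 in H3.2-K4R, a difference of -0.59 ± 0.24 log2 units (edgeR adjusted p = 0.273). sls had 0.52 ± 0.20 (edgeR adjusted p = 0.255), of opposite sign. The counts of CR42860 were 0.673% and 0.661% of those of sls in H3.2-WT against 0.243% and 0.404% in H3.2-K4R. A small share of sls reads assigned to the wrong strand would be counted to CR42860, and its part was not tested.

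CR45600 runs opposite CG3984 and CG3987, with 63.0% of its exon bases shared with exons of the opposite strand. It had 18.9 and 20.1 CPM in H3.2-WT against 24.7 and 34.5 in H3.2-K4R, a difference of 0.60 ± 0.21 log2 units (edgeR adjusted p = 0.222). CR44811, now asRNA:bsAS, is the antisense RNA of blistered, the serum response factor gene that acts in wing and tracheal development. It had 6.45 and 9.50 CPM in H3.2-WT against 7.93 and 13.2 in H3.2-K4R. The groups overlapped, and the difference was 0.40 ± 0.33, beside -0.02 ± 0.15 for bs.

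Members with a current name ranged from 0.80 log2 units for cherub to -0.49 for CG45207. edgeR called none of them, where it called 0.588% of all tested genes. They are too few to set apart from that share. IBIN, a short gene that infection is known to raise strongly, had 34.1 and 37.8 CPM in H3.2-WT against 39.1 and 32.5 in H3.2-K4R. Its difference was -0.01 ± 0.18 log2 units, with a 95% confidence interval of -0.42 to 0.40. Dro, which encodes an antimicrobial peptide also raised by infection and was picked after its values were seen, rose by 4.01 ± 0.61 in the same libraries (edgeR adjusted p = 0.0425). That rise started from few pairs, with 13 and 10 in H3.2-WT against 250 and 135 in H3.2-K4R. P32, which lies 14 bases from IBIN on the other strand, had -0.82 ± 0.17 (edgeR adjusted p = 0.0931).

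CR31451, lncRNA:mimi, had 174 and 175 CPM in H3.2-WT against 169 and 127 in H3.2-K4R, a difference of -0.23 ± 0.17 log2 units. CG43051 (CR43051), which holds a small nucleolar RNA gene in its span, had 0.10 ± 0.17. CG45207 (CR45207) had -0.49 ± 0.28. CR31781 had 66.6 and 85.1 CPM in H3.2-WT against 56.6 and 57.0 in H3.2-K4R, and its difference of -0.42 ± 0.17 did not pass the test (edgeR adjusted p = 0.276).

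Each member was set beside the tested gene that overlaps it or, where none does, the nearest one. CR-numbered genes and small RNA genes were not taken as neighbours. Across the 42 pairs, which share their libraries, the fold changes of member and neighbour had a Pearson correlation of 0.06 and a Spearman correlation of 0.09, and 24 pairs had the same sign. The 10 pairs that overlap on the same strand had the same sign in 8 cases, the 8 that overlap on opposite strands in 3, and the 24 without overlap in 13. edgeR called none of the 41 distinct neighbours (at an unadjusted p under 0.05, 8 were higher and 4 lower, beside 7.68% and 9.2% of all tested genes). DESeq2 called 2 higher and 2 lower, beside 5.58% of the genes it gave an adjusted p, and limma-voom 1 higher and 1 lower, beside 1.5%. The lowest adjusted p was that of Crys (labelled Cry in the counts), 5069 bases from the bft host CR43314, at 2.41 ± 0.41 log2 units (edgeR adjusted p = 0.0562). Crys had 45 and 126 pairs in H3.2-WT against 515 and 345 in H3.2-K4R. CR43314 had 0.06 ± 0.17 log2 units.

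**Figure D4:**
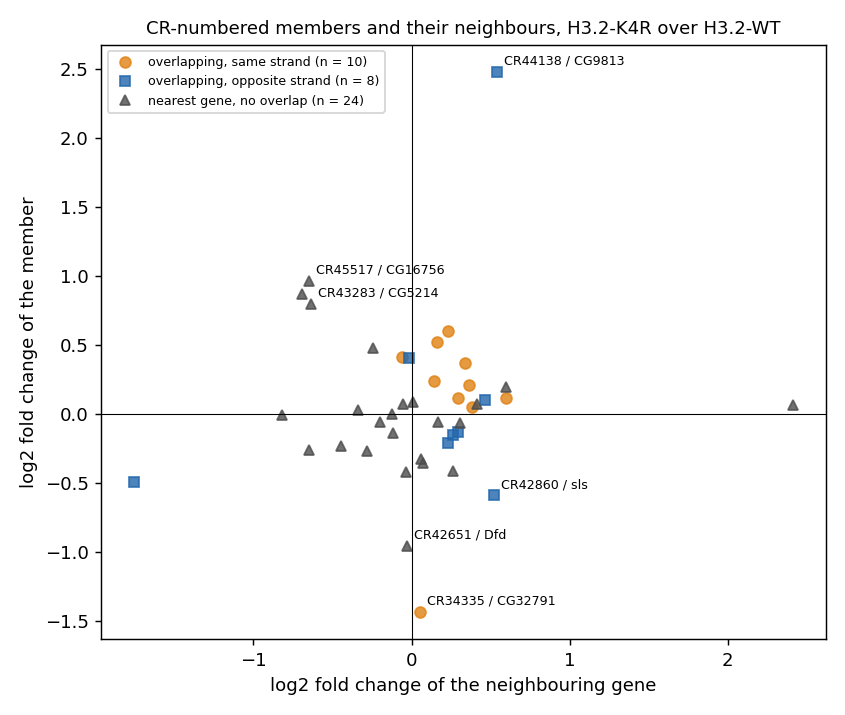
Fold change of each member (y axis, log2) against that of its overlapping or nearest gene (x axis, log2), with orange circles for overlap on the same strand, blue squares for overlap on the opposite strand and grey triangles for no overlap. CR44138 stands at 2.48 beside 0.54 for CG9813, and the points show no common slope (Pearson correlation 0.06 over 42 pairs).

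The count threshold cut through a continuous range of levels. Just inside it were CR45207, with 201 pairs in its lowest library, and CR44024, with 205 and a difference of -0.06 log2 units. Just outside were CR43629, with 191 and a difference of 0.20, and CR42491, with 182 and -0.996. A minimum in every library leaves out genes that were low in 1 group only, and 14 CR-numbered genes had a mean of 200 or more without being members. Their fold changes ran from -0.996 to 1.39 log2 units, 10 of 14 were positive, and none passed the test (edgeR lowest adjusted p = 0.170).

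Among the other CR-numbered genes, 508 passed the filter on low counts. edgeR called 0 of them (at an unadjusted p under 0.05, 22 were higher and 8 lower, beside 7.68% and 9.2% of all tested genes), and so did DESeq2, which gave 221 of them an adjusted p, and limma-voom. Of 15 other named long noncoding RNA genes that were tested, edgeR called 0 (at an unadjusted p under 0.05, 0 were higher and 2 lower, beside the same shares of all tested genes), and DESeq2 and limma-voom also called 0. roX1 and roX2, the RNAs of X-chromosome dosage compensation, had 0.07 ± 0.13 and -0.65 ± 0.23 log2 units. Hsromega, a nuclear RNA of the heat shock response, had 0.29 ± 0.16. In the bithorax complex, iab-8 had 0.10 ± 0.34, iab-4 -0.16 ± 0.33 and bxd 1.02 ± 0.87. The value of bxd rested on few pairs, with 22 and 30 in H3.2-WT against 61 and 43 in H3.2-K4R.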

How the data were processed

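The deposited values are raw counts of read pairs for each gene. The authors made them with featureCounts 2.0.6, per the file headers: on 1 strand, over exons summed by gene, build dm6, without multi-mapping reads or reads over several genes. Reads were handled with STAR 2.7.7a, SAMtools 1.9 and Subread 2.0.6, per the submitters' processing notes. Groups came from the labels, and the columns named HWT were taken as H3.2-WT. Nothing says that replicates are separate collections, so p-values measure the spread between libraries, which may be technical. Exon lengths in bases are from the deposited table.

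The test was edgeR 4.0.16 in R 4.3.3 (filterByExpr with minimum count 10 and minimum total 15, TMM, quasi-likelihood test, Benjamini-Hochberg adjustment over all tested genes, threshold 0.05), tested on simulated data. This test gives no SE, so SE was taken as the absolute log2 fold change over the square root of its F statistic. Confidence intervals used that SE and the t distribution with the degrees of freedom of the test. CPM values use TMM library sizes. Alternatives were RLE factors, no filter, DESeq2 1.42.0, limma-voom 3.58.1, an exon length offset, a replicate block, leaving out each library, and other member thresholds.

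The members and lists were chosen with earlier results of these data known. Named members are those past the threshold, the 12 with the lowest p, the 10 with the highest level per length, those in Hox complexes, those with a current name, and those nearest the count threshold. Others were chosen after their values were seen. Names came from RefSeq by symbol and overlapping coordinates, and all 42 members matched. No sequence is shown.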

Additional observations from a re-analysis of the deposited data

How the results depend on the processing

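The number of members called moved with the test, and so did that of all genes called. The main fit called 1 of 42 members and 68 of 11562 tested genes. With no filter on low counts, which tests more genes, 5 members were among 979 genes called (452 higher and 527 lower). CR34335 and CR42651 were lower among the 5. DESeq2 called 3 members and 581 genes (310 higher and 271 lower), or 5.58% of the genes to which it gave an adjusted p. Limma-voom called 2 members and 173 genes (101 higher and 72 lower), or 1.5%. Leaving out 1 library gave 0 to 6 members and 1 to 838 genes. CR44138 lost its call without H3.2-WT replicate 2, where its difference was 2.33 log2 units. The 6 came without H3.2-K4R replicate 1 and were CR34335, CR42651, CR43283, CR44138, CR45517 and CR45600. Without H3.2-WT replicate 1, 32 genes were called. The cause was not tested. RLE factors, the exon length offset and every other member threshold kept the single call, CR44138.

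Same-numbered libraries share only the number in the labels, and they deviated together with a correlation of 0.11 over 2 pairs. With the replicate block, 7 of 42 members and 1366 of 11562 tested genes (608 higher, 758 lower) were called. Beside CR44138 these members were CR34335 (adjusted p = 1.58e-30), CR43283 (2.44e-06), CR45517 (0.000603), CR42651 (0.00537), CR45600 (0.0366) and CR44603 (0.0474), by edgeR. The SE of CR34335 was 0.65 in the main fit, 0.16 with the block and 0.17 with no filter. Its H3.2-K4R libraries differed 6.23-fold, so its adjusted p with the block or with no filter does not measure that spread. Calls made only under those settings carry the same limit. So do the lowest edgeR adjusted p-values of CR44138 (9.48e-46, block with exon length offset) and CR43283 (2.44e-06, block). With the block and the exon length offset, 10 of 42 members and 1042 of 11562 tested genes (628 and 414) were called. The 10 were the members called with the block alone, without CR44603, and CR32218, CR43650, CR43910 and CR45244.

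The median fold change of the members was -0.059 without members that overlap a gene on the same strand, and -0.01 to 0.11 without 1 library.

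Of 231 values of the 21 named members under alternatives, 193 kept direction and side of the threshold, 26 passed it, 1 lost it and 11 turned sign. CR44404 had 0.019 with RLE factors and with DESeq2, 0.38 with the exon length offset, and 0.40 with that offset and the block. CR44024 had 0.018 with offset and block. Leaving out 1 library, the values ran from -0.15 to 0.12 for CR44404, from -0.36 to 0.35 for CR44024, from -0.056 to 0.24 for CR43051 and from -0.011 to 0.73 for CR44811.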
